A study of Homo sapiens with 12 samples.

Results

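AP-1 and EGR are 2 families of DNA-binding transcription factors whose genes are among the first to be transcribed when serum is given to resting fibroblasts. Here 10 of their genes were followed in fibroblasts kept in low serum for 10 days, namely FOS, FOSB, FOSL1 and FOSL2 (the FOS family), JUN, JUNB and JUND (the JUN family), and EGR1, EGR2 and EGR3. They were taken by name from a table of 60671 genes, of which 32285 had at least 1 read, and all 10 were found. All 10 passed the filter on low values, as did 13236 genes in all.

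The cells were BJ-5ta, human fibroblasts immortalized with the telomerase gene hTERT. Wild-type cells and a LEO1 knockout (ΔLEO1, a single clone made with CRISPR/Cas9) were grown in 10% serum or held for 10 days in 0.1% serum, which gave 4 groups of 3 libraries of poly(A) RNA, with the ERCC mixture of synthetic RNAs added as an internal standard. The groups are WT_10 and WT_01 for wild-type cells in 10% and 0.1% serum, and Leo1_10 and Leo1_01 for ΔLEO1 cells. LEO1 is a subunit of the PAF1 complex, which travels with RNA polymerase II. Because the knockout was a single clone, the loss of LEO1 and other features of that clone cannot be told apart.

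Proteins of the FOS family do not bind DNA as pairs with each other. They pair with a JUN protein, and the pair is the AP-1 factor. JUN proteins also pair among themselves. FOS, FOSB, JUN, JUNB and EGR1 are classical immediate early genes, switched on through MAP kinases and serum response factor without new protein synthesis and switched off again soon after, whereas FOSL1 and FOSL2 follow later and last longer. JUND is made in resting cells, EGR2 and EGR3 are zinc finger relatives of EGR1, and the NAB proteins are corepressors of the EGR proteins.

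Each library had 26240632 to 45315560 gene counts. The ERCC share per library ran from 0.625% to 3.24%. LEO1 itself had 682 to 1001 counts in the 6 wild-type libraries and 23 to 55 in the 6 ΔLEO1 libraries, and it was 16.2-fold lower in ΔLEO1 cells in 10% serum and 20-fold lower in 0.1% serum. The fibroblast markers were all present, each at 273 CPM (gene counts scaled to a common library total) or more in every library. The markers of epithelial, endothelial, melanocyte and muscle cells summed to at most 1.51 CPM per cell type. The immune markers summed to 0.823 to 1.91 CPM in wild-type and 1.82 to 7.85 CPM in ΔLEO1 libraries. The highest single value among them was 7.1 CPM, of PTPRC, and CD3E was under 1 CPM throughout. The part of this difference in the results below was not tested.

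The 3 libraries of a group were not equally alike. Between the 2 libraries with the lowest running numbers, the chi-square per gene was 2.87 to 11.1, and between either of them and the highest-numbered library it was 59.6 to 129. The labels do not say which libraries came from separate cultures, so the p-values measure the spread between these libraries, which may in part be technical. In Leo1_01 the ERCC share was 1.88%, 3.24% and 1.09% in libraries 10, 11 and 12. Against the ERCC RNAs each gene is therefore scaled up most in library 12, the highest-numbered one, and least in library 11. Results that rest on library 12 are given with and without it, and leaving out library 11 also moved several ERCC values.

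Promoter sequences were available for 8 of the 10 genes, from RefSeq on GRCh38.p14. FOSL1 and EGR3 had no entry. The 150 bases before the start of a RefSeq transcript of 4 of these genes, written 5′ to 3′ along the gene, are shown because these are the genes with the largest differences below. Capitals mark the TGACG core of a cyclic AMP response element on either strand (CGTCA when it lies on the other strand) and the CArG box, which serum response factor binds. The windows are chr14:75278678-75278827 (plus strand) for FOS, chr19:45467846-45467995 (plus) for FOSB, chr5:138465329-138465478 (plus) for EGR1 and chr10:62816367-62816516 (minus) for EGR2. RefSeq starts differ from the ends of the annotated gene spans given further on, so the FOS window runs past the start of its span and the EGR2 window lies within its span.
FOS: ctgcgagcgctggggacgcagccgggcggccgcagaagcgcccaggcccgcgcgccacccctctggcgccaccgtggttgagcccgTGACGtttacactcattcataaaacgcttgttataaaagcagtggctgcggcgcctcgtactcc
FOSB: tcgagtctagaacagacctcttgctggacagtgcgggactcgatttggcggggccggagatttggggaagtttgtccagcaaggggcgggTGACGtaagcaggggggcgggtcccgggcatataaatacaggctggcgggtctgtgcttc
EGR1: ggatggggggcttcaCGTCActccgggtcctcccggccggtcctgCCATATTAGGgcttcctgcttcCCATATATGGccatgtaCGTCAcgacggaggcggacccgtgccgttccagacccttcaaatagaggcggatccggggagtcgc
EGR2: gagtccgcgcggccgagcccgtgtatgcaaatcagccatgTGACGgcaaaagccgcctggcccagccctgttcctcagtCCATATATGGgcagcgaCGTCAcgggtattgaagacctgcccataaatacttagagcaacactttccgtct

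TGACG was found on either strand in the 150-base window of 8 of the 8 genes with a promoter entry, and in 15.3% of all 34762 windows of that length. In FOS it begins 64 bases before the RefSeq start, in FOSB 60 and in FOSL2 66. A CArG box was present at 2 places in EGR1 and once in EGR2, against 0.774% of all windows. No window of another member held one, but only these 150 bases were searched. A site further upstream, in FOS, FOSB or any other gene, would therefore be missed. TATAAA was present in FOS, FOSB and JUNB, against 6.74%. The full element TGACGTCA, the AP-1 site TGANTCA, the EGR site GCGNGGGCG and the ETS site CCGGAA were searched on both strands as well and were in none of the member windows, against 1.39%, 4.2%, 6.42% and 11.1% of all windows. EGR2 has 3 windows in the table, and only the one printed holds any of these motifs. TGACG is contained in TGACGTCA, and these matches of letters are a description of the windows and not evidence of binding.

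The genes also share a low number of exons. All 10 have at most 4 exons in their longest coding transcript, as have 29.1% of coding genes, and JUN, JUNB and JUND have 1 exon, as have 5.92%, where the median coding gene has 8. The AU-rich pentamer ATTTA, known from short-lived mRNAs, occurred 1.85 times per kb in the 3′ UTRs of the 10 genes together and 2.25 times per kb over all coding genes. The longer form TTATTTATT was in the 3′ UTRs of FOS and FOSL2, against 7.94% of coding genes. Some other genes overlap these genes or share sequence with them. JUNB overlaps HOOK2 on the other strand, and 11.5% of its 58-base stretches occur there too. EGR3 overlaps AC055854.1, where 2.21% of its stretches occur, and FOSL1 shares 1.51% of its stretches with FOSL1P1. FOSB overlaps ERCC1, and FOSL2 overlaps FLJ31356 and AC104695.3, but no 58-base stretch of FOSB or FOSL2 occurs in another annotated gene. The strand setting of the counting is not given in the sources used here, so reads from the shared stretches of JUNB and EGR3 may not be separated.

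To compare levels between the genes, CPM was divided by the exon length in kb (RPKM). In wild-type cells in 10% serum EGR1 was at 273 ± 57.6 RPKM (mean ± SD, n = 3), above every other gene of the 10. JUN at 116 ± 31.2, JUND at 115 ± 3.39, FOS at 114 ± 51.5 and JUNB at 78.6 ± 6.74 followed with overlapping libraries from each to the next. FOSL1 stood at 43.8 ± 6.18, FOSL2 at 21.5 ± 6.73 and FOSB at 13.7 ± 5.16, and EGR2 and EGR3 were close to the bottom of the range at 1.76 ± 0.923 and 0.633 ± 0.181. FOSL2 overlapped FOSB in this order, and EGR2 overlapped EGR3.

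The order was different in the other groups. In wild-type cells in 0.1% serum EGR1 stood at 757 ± 174 RPKM and led again, followed by JUNB at 324 ± 25.4, FOS at 270 ± 14.2, JUN at 226 ± 25.9 and JUND at 203 ± 51.8. Among neighbours in this order only JUN and JUND overlapped. EGR2, at 98.9 ± 14.2, now stood above FOSB at 51.3 ± 16.5, FOSL1 at 32.7 ± 1.91 and FOSL2 at 20.4 ± 4.1. In ΔLEO1 cells in 10% serum JUND led at 106 ± 11.5, and FOSL1 at 70.4 ± 24 stood above FOS at 7.15 ± 1.85, the reverse of their order in wild-type cells. In ΔLEO1 cells in 0.1% serum EGR1 at 297 ± 25.9, JUNB at 174 ± 96.2, JUND at 167 ± 2.05, JUN at 129 ± 53 and EGR2 at 98 ± 30.1 formed a run in which each overlapped the next.

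**Figure D1:**
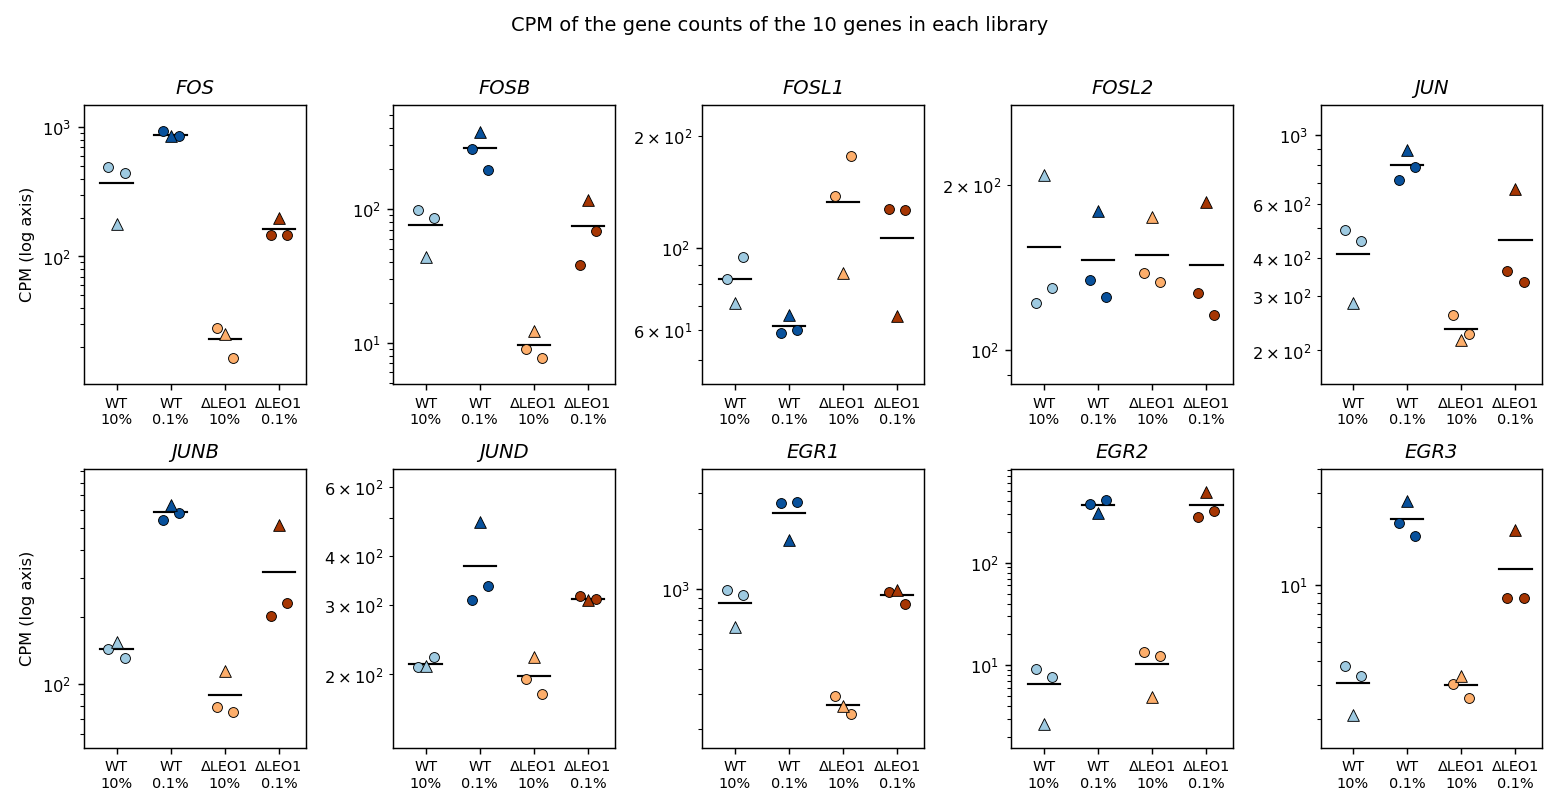
CPM (log axis) of the 10 genes in the 4 groups. Each point is 1 library, triangles are the highest-numbered library of a group and bars are means of 3. EGR2 sits at 2.65 to 13.5 CPM in 10% serum and at 278 to 488 CPM in 0.1% serum in both genotypes, and FOS is lower in the ΔLEO1 libraries than in the wild-type libraries of the same serum.

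The first comparison asked how the 10 genes stood after 10 days in 0.1% serum in wild-type cells. Counts were scaled in 2 ways. On the ERCC scale the total of the added RNAs sets the size of each library, so a value stands for RNA per unit of standard, and on this scale the median of all genes fell by 0.97 (log2). On the second scale, relative to the genes (the gene scale), the normalization factors come from the genes themselves, and the median of all genes was 0.0044. In bulk RNA fewer cells in a sample, less RNA per cell and less RNA taken into a library cannot be told apart on the ERCC scale. The paper gives the starting amount of RNA as a range and not per library. On the ERCC scale 2 of the 10 genes were called higher (EGR2 and EGR3, with 0.944% of all genes called higher) and 2 were called lower (FOSL1 and FOSL2, with 36.1% of all genes called lower), where a gene is called at an adjusted p under 0.05 in edgeR. On the gene scale 8 of the 10 were called higher, with 16% of all genes called higher, and none lower, with 16.6% of all genes called lower. The median of the 10 genes was 0.24 on the ERCC scale and 1.28 relative to the genes.

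EGR2 had the largest change. Its counts were 333, 302 and 104 in the 3 libraries in 10% serum and 12610, 10804 and 10326 in 0.1% serum. In CPM these are 9.13, 7.71 and 2.65 against 375, 412 and 308. The groups are far apart and the lowest library of each genotype in 10% serum is the highest-numbered one. EGR2 was 25.2-fold higher on the ERCC scale (log2 4.65 ± 0.45, SE, adjusted p = 3.66e-16), which placed it 15th from the top of 13236 genes, and 53-fold higher relative to the genes. EGR3, with a zinc finger domain like that of EGR1, was at 3.78, 3.34 and 2.09 CPM in 10% serum and 20.9, 18 and 27.1 in 0.1% serum. It was 3.17-fold higher on the ERCC scale (log2 1.66 ± 0.50, adjusted p = 0.00859) and 6.76-fold higher relative to the genes. The ERCC call of EGR3 was lost after summing, within each group, the 2 libraries with the lowest numbers (summed libraries), at 1.87 (adjusted p = 0.0918).

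EGR1, the best known of the serum-induced EGR genes, was abundant in both conditions, at 985, 932 and 649 CPM in 10% serum and 2681, 2701 and 1747 CPM in 0.1% serum. The CPM values did not overlap, but on the ERCC scale the change was 0.40 ± 0.44 and was not called (adjusted p = 0.402). On the gene scale EGR1 was 2.62-fold higher (log2 1.39 ± 0.20, adjusted p = 1.73e-10). Its ERCC value was nonetheless above that of 97.4% of all genes.

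The FOS genes split. FOS was at 488, 439 and 178 CPM in 10% serum and at 928, 848 and 847 CPM in 0.1% serum, and FOSB, its close relative, was at 98.4, 86.3 and 43.8 against 282, 195 and 378. In both genes every library in 0.1% serum lay above every library in 10% serum in CPM, and the highest-numbered library was the lowest of the 10% group. On the ERCC scale the changes were 0.073 ± 0.44 for FOS and 0.67 ± 0.45 for FOSB, not called (adjusted p = 0.882 and 0.185), and relative to the genes FOS was 2.24-fold and FOSB 3.54-fold higher (adjusted p = 0.00131 and 5.12e-05).

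FOSL1 and FOSL2, the later FOS genes, behaved otherwise. FOSL1 was at 82.6, 94.3 and 71 CPM in 10% serum and 59.1, 60.3 and 65.9 CPM in 0.1% serum, and FOSL2 at 122, 130 and 209 against 134, 125 and 179. The libraries of FOSL1 did not overlap and those of FOSL2 did. On the ERCC scale FOSL1 fell by 1.51 ± 0.45 and FOSL2 by 1.09 ± 0.45 on the log2 scale (adjusted p = 0.00824 and 0.0459). On that scale 13.6% of all genes had a lower value than FOSL1 and 38.6% a lower value than FOSL2. Relative to the genes the values were −0.50 ± 0.28 for FOSL1 and −0.16 ± 0.24 for FOSL2, not called (adjusted p = 0.163 and 0.652). The ERCC call of FOSL2 was lost with the quasi-likelihood test of edgeR (adjusted p = 0.0631) and with a term for the highest-numbered library (adjusted p = 0.0585). It was also lost without the filter on low values (adjusted p = 0.0914) and without library 1, 2, 5, 6, 7, 8, 9 or 10, at −1.03 to −1.17. The call of FOSL1 was lost without library 1, 2, 7 or 9, at values of −1.34 to −1.47. Both were lost with summed libraries, at −1.44 for FOSL1 and −1.10 for FOSL2 (adjusted p = 0.148 and 0.22).

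Of the JUN genes, JUNB, which can take the place of JUN beside a FOS protein, had the largest fold change. It was at 143, 131 and 155 CPM in 10% serum and 545, 585 and 637 CPM in 0.1% serum, 3.88-fold higher relative to the genes (log2 1.96 ± 0.29, adjusted p = 1.65e-09). With ERCC scaling JUNB was at 0.99 ± 0.44 and missed the threshold (adjusted p = 0.0624), although the groups did not overlap there either, and it was called without library 11 or library 12 (adjusted p = 0.0178 and 0.0138). These are ΔLEO1 libraries outside this comparison, and the value stayed at 0.99 without either. What changed was the estimate of spread shared by the 4 groups and the adjustment over all genes. JUN was at 494, 455 and 286 CPM against 716, 787 and 898, and JUND at 209, 221 and 210 against 310, 335 and 488. On the gene scale these were 1.83-fold and 1.67-fold higher (adjusted p = 0.00316 and 0.000138), and on the ERCC scale they were at −0.18 ± 0.44 and −0.28 ± 0.44, not called (adjusted p = 0.705 and 0.568).

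In ΔLEO1 cells the same comparison called the same 8 genes higher relative to the genes, with 16.5% of all genes called higher and 12.9% called lower, and the median of the 10 genes was 1.75 against 0.012 for all genes. With ERCC scaling 3 were called higher (FOS, FOSB and EGR2, with 0.975% of all genes called higher) and FOSL1 and FOSL2 were called lower, with 47.2% of all genes called lower. The median of the 10 genes on the ERCC scale was 0.82, and that of all genes was −1.05. With library 12 left out, a fit added after the values were seen, the 8 calls relative to the genes remained, at 0.54 for JUN, 0.63 for JUND and between 1.24 and 4.84 for the other 6.

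FOS was at 28, 16.4 and 25.1 CPM in ΔLEO1 cells in 10% serum and 146, 147 and 197 CPM in 0.1% serum, and FOSB at 9.02, 7.75 and 12.2 against 38, 68 and 116. FOS was 3.34-fold higher on the ERCC scale (log2 1.74 ± 0.44, adjusted p = 0.00274) and 6.73-fold relative to the genes, and FOSB was 4.03-fold (log2 2.01 ± 0.45, adjusted p = 0.0006) and 7.23-fold higher. Without library 12 the ERCC change of FOSB was 0.75 and no longer called (adjusted p = 0.0661), and that of FOS was 1.02 and still called (adjusted p = 0.0129). With ERCC scaling the FOS libraries of the 2 serum conditions overlapped, since 4394 in 0.1% serum lay just under 4424 in 10% serum.

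EGR2 was at 13.5, 12.4 and 4.88 CPM in 10% serum and 278, 319 and 488 CPM in 0.1% serum in ΔLEO1 cells. It was 16.7-fold higher on the ERCC scale (log2 4.06 ± 0.45, adjusted p = 7.87e-13) and 33.6-fold higher relative to the genes, and its rank on the ERCC scale was 16th from the top. Without library 12 its ERCC change was 3.15 and it was still called. EGR3 went from 3.04, 2.58 and 3.35 CPM to 8.51, 8.48 and 19.3, and EGR1 from 294, 238 and 261 to 965, 839 and 991. No library in 0.1% serum overlapped one in 10% serum in CPM for either gene. With gene scaling EGR3 was 3.82-fold and EGR1 3.38-fold higher (adjusted p = 1.19e-07 and 5.91e-16), and on the ERCC scale they were at 1.11 ± 0.50 and 0.70 ± 0.44, not called (adjusted p = 0.0537 and 0.144).

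JUN was at 261, 226 and 217 CPM in ΔLEO1 cells in 10% serum and at 363, 333 and 672 CPM in 0.1% serum, JUNB at 79, 75 and 115 against 201, 231 and 518, and JUND at 195, 178 and 221 against 316, 311 and 309. In JUN and JUNB library 12 was by far the highest of its group, and in JUND it was not. Relative to the genes JUNB was 3.34-fold, JUN 1.85-fold and JUND 1.51-fold higher (adjusted p = 1.17e-07, 0.00322 and 0.0031). The ERCC changes were not called, and they depended on library 12. JUN was at −0.0077 ± 0.44 with all libraries and −1.05 without library 12, where it was called lower (adjusted p = 0.0137). JUND was at −0.47 ± 0.44 with all libraries and −0.94 without library 12, also called lower (adjusted p = 0.0263). JUNB was at 0.95 ± 0.44 with all libraries and −0.34 without library 12, where EGR3 was at −0.11 and EGR1 at 0.16. Without library 11 JUNB was at 1.37 and EGR3 at 1.54, both called higher (adjusted p = 0.0148 and 0.0203). JUN was then at 0.41, JUND at −0.16 and EGR1 at 1.05, not called.

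FOSL1 was at 138, 176 and 85.4 CPM in ΔLEO1 cells in 10% serum and 127, 126 and 65.8 CPM in 0.1% serum, with the highest-numbered library the lowest in both. FOSL2 was at 138, 133 and 175 against 127, 116 and 186. With ERCC scaling they fell by 1.64 ± 0.45 and 1.04 ± 0.45 on the log2 scale (adjusted p = 0.00533 and 0.0455), and relative to the genes they were at −0.37 ± 0.28 and −0.13 ± 0.24, not called. The ERCC call of FOSL2 was lost without library 2, 4, 5, 6, 7, 8, 10 or 11, and without library 12 its value was −1.87. The call of FOSL1 was lost without library 4 (−1.44, adjusted p = 0.0569). Both calls were lost with summed libraries, at −1.48 for FOSL1 and −0.76 for FOSL2 (adjusted p = 0.286 and 0.414). That of FOSL2 was also lost with the quasi-likelihood test (adjusted p = 0.0609), without the filter on low values (0.0865) and in a fit of only the 6 libraries compared (0.0987).

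**Figure D2:**
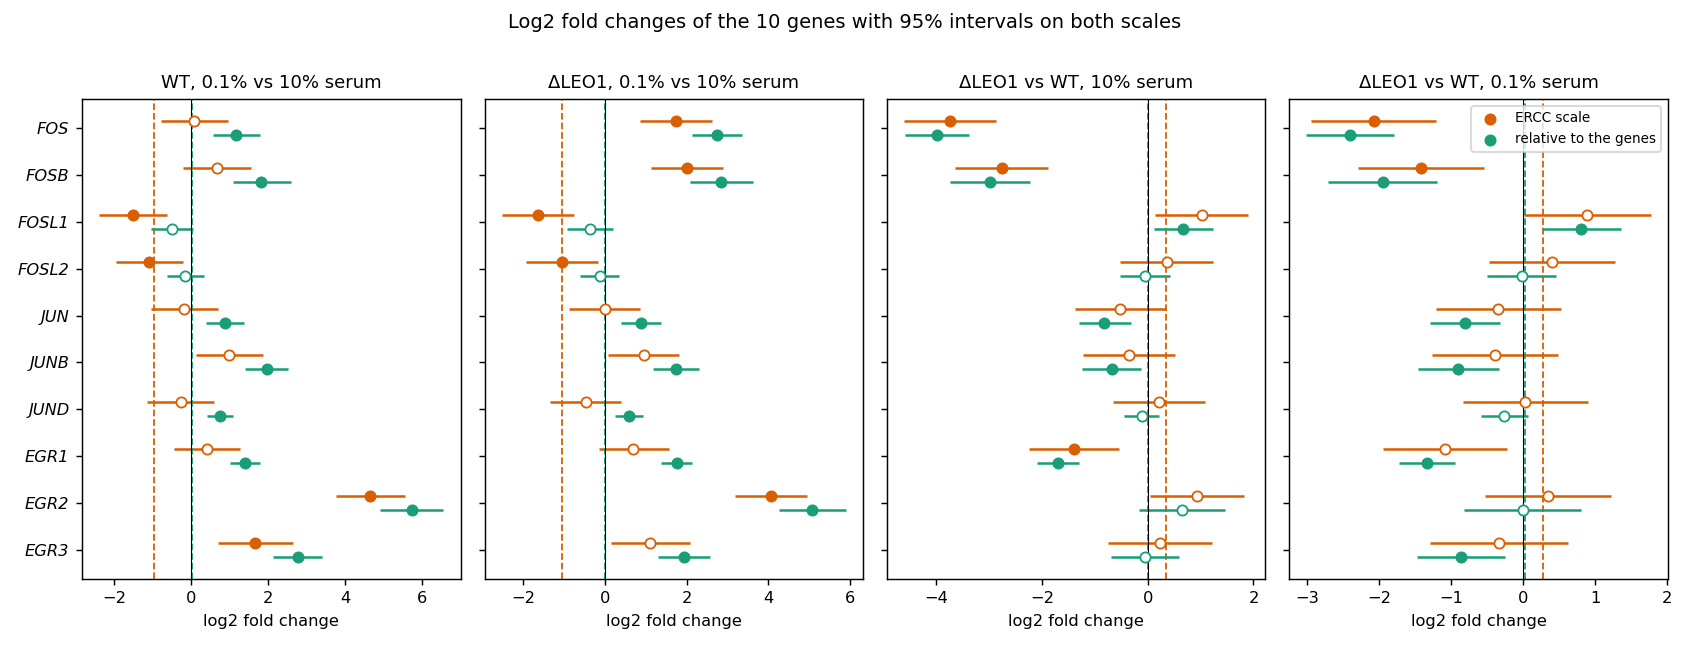
Log2 fold changes of the 10 genes in 4 comparisons, on the ERCC scale and relative to the genes, with 95% intervals computed from the edgeR fits. Filled points were called, open points were not, and the dashed lines are the medians of all genes on each scale. EGR2 lies furthest to the right in both serum comparisons, at 4.65 and 4.06 on the ERCC scale, and FOS furthest to the left in both genotype comparisons, at −3.74 and −2.07.

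The second question was how the ΔLEO1 clone differed from wild-type cells in the same serum. In 10% serum FOS, FOSB and EGR1 were lower in ΔLEO1 cells on the ERCC scale, 3 of the 10 genes, with 4.64% of all genes called lower, and no member was called higher, with 4.2% of all genes called higher. On the gene scale JUN and JUNB were called lower as well, 5 of the 10 with 21.8% of all genes called lower, and FOSL1 was called higher, with 17.7% of all genes called higher. The median of all genes was 0.35 on the ERCC scale, and the median of the 10 genes was −0.065.

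FOS fell furthest. Its 3 ΔLEO1 libraries in 10% serum, at 28, 16.4 and 25.1 CPM, were below the lowest wild-type library at 178 CPM. FOS was 13.4-fold lower on the ERCC scale (log2 −3.74 ± 0.44, adjusted p = 3.18e-12) and 15.9-fold lower relative to the genes, and only 1.24% of all genes had a lower ERCC value. FOSB, at 9.02, 7.75 and 12.2 CPM against 98.4, 86.3 and 43.8, was 6.78-fold lower on the ERCC scale (log2 −2.76 ± 0.45, adjusted p = 4.04e-07) and 7.9-fold lower relative to the genes. The change was larger among the 2 lowest-numbered libraries than between the highest-numbered ones. In CPM it was −4.38 against −2.83 for FOS, and −3.46 against −1.84 for FOSB.

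EGR1 was at 294, 238 and 261 CPM in ΔLEO1 cells and 985, 932 and 649 CPM in wild-type cells in 10% serum. It was 2.63-fold lower on the ERCC scale (log2 −1.39 ± 0.44, adjusted p = 0.0235), where 1 library of each genotype overlapped, and 3.25-fold lower relative to the genes (adjusted p = 1.15e-15), where none did. The ERCC call was lost with DESeq2 (adjusted p = 0.0649), with summed libraries (−1.29, adjusted p = 0.337) and without libraries 1, 2, 5 or 6, where the values were −1.06, −1.32, −1.26 and −1.26. EGR2 and EGR3 were not called on either scale, at 0.94 ± 0.45 and 0.23 ± 0.50 on the ERCC scale (adjusted p = 0.255 and 0.825). EGR1 was therefore the one called gene of the 3 EGR genes in this comparison, and the differences between the 3 were not tested here.

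JUN and JUNB were 1.76-fold and 1.6-fold lower relative to the genes in ΔLEO1 cells in 10% serum (adjusted p = 0.00471 and 0.0478), and on the ERCC scale they were at −0.52 ± 0.44 and −0.35 ± 0.44, not called (adjusted p = 0.564 and 0.692). JUND, at 195, 178 and 221 CPM against 209, 221 and 210, had overlapping groups and was at 0.22 ± 0.44 on the ERCC scale (95% interval −0.65 to 1.09). FOSL1, at 138, 176 and 85.4 CPM against 82.6, 94.3 and 71, overlapped only through its highest-numbered ΔLEO1 library. It was 1.6-fold higher relative to the genes (log2 0.67 ± 0.28, adjusted p = 0.0454) and at 1.02 ± 0.45 on the ERCC scale, not called (adjusted p = 0.183). FOSL2 was at 0.36 ± 0.45 on the ERCC scale (95% interval −0.52 to 1.23). With summed libraries, a fit on the gene scale added after the values were seen, the calls of JUN, JUNB and FOSL1 were lost, at −0.71, −0.59 and 0.62 (adjusted p = 0.128, 0.301 and 0.274).

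In 0.1% serum FOS and FOSB were again lower in ΔLEO1 cells, 2 of the 10 genes on the ERCC scale, with 3.59% of all genes called lower and 3.85% called higher. With gene scaling 6 were called lower (FOS, FOSB, JUN, JUNB, EGR1 and EGR3), with 17.6% of all genes called lower, and FOSL1 was called higher, with 15.4% of all genes called higher. FOS was at 146, 147 and 197 CPM in ΔLEO1 cells and 928, 848 and 847 CPM in wild-type cells, 4.21-fold lower on the ERCC scale (log2 −2.07 ± 0.44, adjusted p = 0.000191) and 5.31-fold lower relative to the genes. FOSB, at 38, 68 and 116 CPM against 282, 195 and 378, was 2.68-fold (log2 −1.42 ± 0.45, adjusted p = 0.0282) and 3.86-fold lower. No library of one genotype overlapped the other in either gene. The ERCC call of FOSB was lost without library 5, 7, 8, 9, 10 or 11, at values of −1.04 to −1.49, and with DESeq2 (adjusted p = 0.34). With summed libraries neither gene was called on the ERCC scale, with FOS at −1.72 and FOSB at −1.09 (adjusted p = 0.088 and 0.545).

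EGR1 stood at 965, 839 and 991 CPM in ΔLEO1 cells in 0.1% serum, below the 1747 CPM of the lowest wild-type library. It was 2.52-fold lower relative to the genes (adjusted p = 5.78e-10) and at −1.09 ± 0.44 on the ERCC scale, not called (adjusted p = 0.141). JUN was 1.75-fold, JUNB 1.87-fold and EGR3 1.82-fold lower relative to the genes (adjusted p = 0.00639, 0.00837 and 0.0227), and FOSL1 was 1.75-fold higher (adjusted p = 0.0169). In CPM the genotypes overlapped for EGR3 and FOSL1. FOSL1 was at 127, 126 and 65.8 CPM in ΔLEO1 cells against 59.1, 60.3 and 65.9 CPM in wild-type cells, so the highest-numbered libraries did not differ. EGR2, with 278, 319 and 488 CPM against 375, 412 and 308, did not separate the genotypes, at 0.35 ± 0.45 on the ERCC scale (95% interval −0.53 to 1.22) and −0.0064 ± 0.41 relative to the genes (95% interval −0.82 to 0.81).

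Library 12 decided how many of the 10 genes were called on the ERCC scale in 0.1% serum. With it the count was 2, and without it 6 were called lower. EGR1 was then at −1.63, JUN at −1.39, JUNB at −1.69 and EGR3 at −1.55 (adjusted p = 0.00214, 0.0123, 0.00137 and 0.00993), FOS at −2.80 and FOSB at −2.69. Relative to the genes 7 were called with it and the same 7 without it, again in the fit added after the values were seen, and the values without it were −2.53 for FOS, −2.39 for FOSB, −1.15 for JUN, −1.40 for JUNB, −1.35 for EGR1, −1.33 for EGR3 and 1.08 for FOSL1. With summed libraries, also added after the values were seen, 3 of these 7 calls were left, FOS at −2.36, FOSB at −1.91 and EGR1 at −1.24, and JUN, JUNB, EGR3 and FOSL1 were not called (adjusted p = 0.152, 0.208, 0.227 and 0.324). The shares of all genes called without library 12 or with summed libraries are not given here. Whether these changes in the counts are particular to the 10 genes was not tested. Leaving out library 12 also changes the estimate of spread that all comparisons share.

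**Figure D3:**
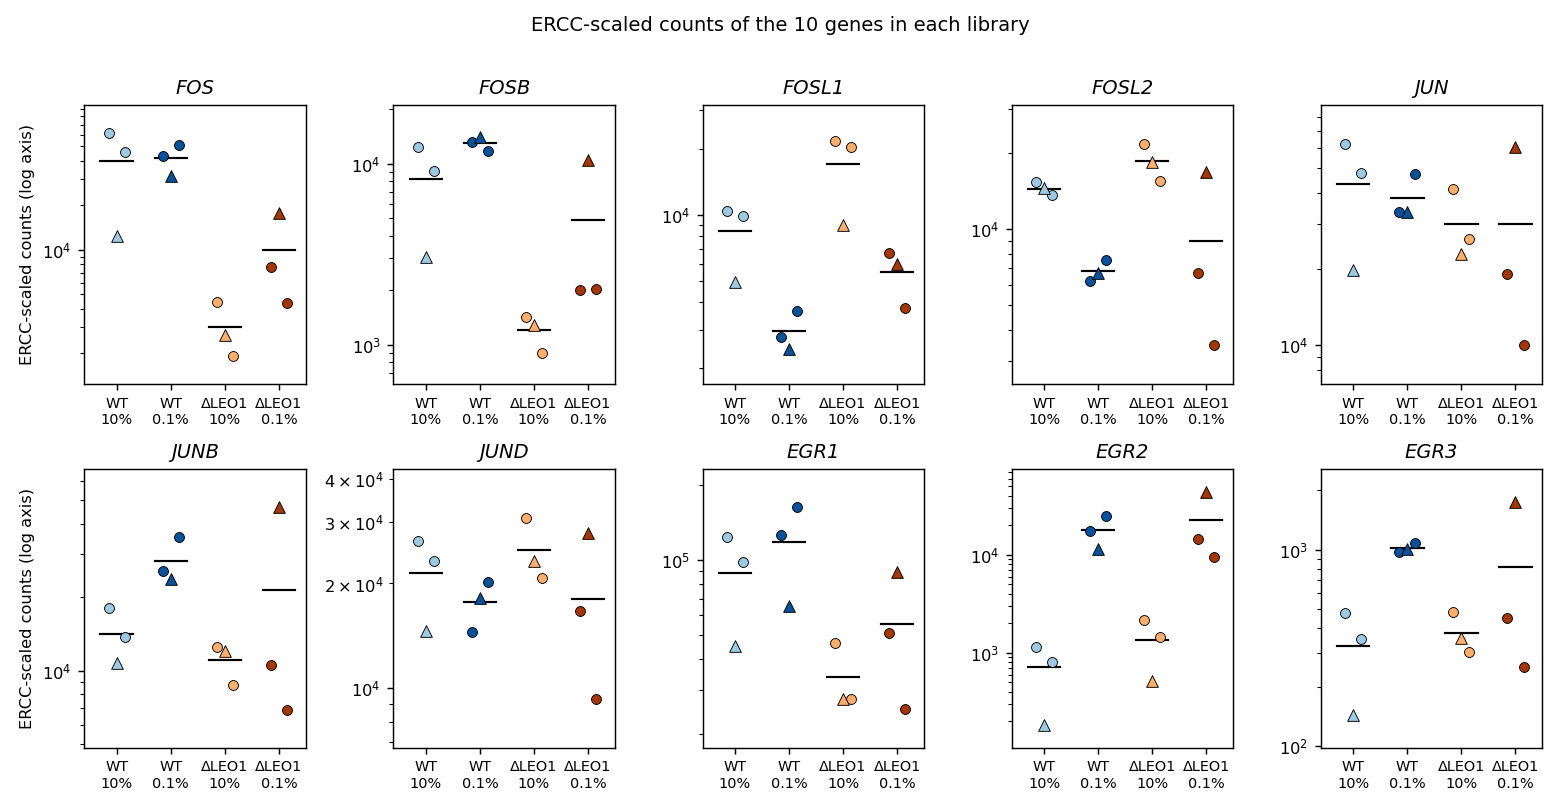
ERCC-scaled counts (log axis) of the 10 genes in the 4 groups, drawn as in the plot of CPM. Library 12, the triangle of the ΔLEO1 0.1% group, is the highest of its group in every gene except FOSL1, for example 60961 against 19097 and 9979 in JUN.

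The third comparison asked whether the serum response differed between the genotypes. The interaction was not called for any of the 10 genes on the ERCC scale, with 0.136% of all genes called higher and 0.0831% called lower. At an unadjusted edgeR p under 0.05 there were 2 members, FOS and FOSB, and neither the quasi-likelihood test nor DESeq2 called a member. FOS had an interaction of 1.67 ± 0.63 and FOSB of 1.34 ± 0.64, and the other 8 genes lay between −0.59 and 0.30. These values depended on single libraries. Without library 11, FOS was at 2.02 and called (adjusted p = 0.0437), and without library 12 it was at 0.94 and FOSB at 0.074, neither called (adjusted p = 0.536 and 0.923). On the gene scale the interaction of FOS was called, 1 of the 10 with 3.06% of all genes called higher and 1.02% called lower, at 1.59 ± 0.44 (adjusted p = 0.0126), a 6.73-fold rise in ΔLEO1 cells against 2.24-fold in wild-type cells.

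Even after the larger rise, FOS in ΔLEO1 cells in 0.1% serum, at 146 to 197 CPM, did not exceed the 178 to 488 CPM of wild-type cells in 10% serum as a group, with 1 library of each inside the range of the other. EGR2, by contrast, ended at like levels in both genotypes, 365 ± 52.4 CPM in WT_01 and 362 ± 111 CPM in Leo1_01. Its interaction was −0.59 ± 0.63 on the ERCC scale (95% interval −1.84 to 0.65), which leaves differences of either sign within the interval.

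Since the AP-1 factor is a pair, the make-up of each family was also computed. The share of a gene is its RPKM over the summed RPKM of its family in the same library, which does not depend on the ERCC counts. In wild-type cells FOS held 56.6% ± 12.5 of the FOS family in 10% serum and 72.2% ± 4.5 in 0.1% serum (SD, n = 3). In ΔLEO1 cells it held 7.48% ± 2.83 and 36% ± 5.8. FOSL1 held 23.6% ± 5.01 and 8.76% ± 0.596 in wild-type cells and 68.9% ± 11.2 and 40.3% ± 13.8 in ΔLEO1 cells. So the most abundant FOS transcript per length was FOS in all 6 wild-type libraries and FOSL1 in the 3 ΔLEO1 libraries in 10% serum, while in ΔLEO1 cells in 0.1% serum FOSL1 led in libraries 10 and 11 (49% and 47.5%) and FOS led in library 12 (42.7%).

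The log2 ratio of FOSL1 to FOS per length was −1.26 ± 0.64 in WT_10, −3.04 ± 0.14 in WT_01, 3.27 ± 0.84 in Leo1_10 and 0.11 ± 0.79 in Leo1_01. In the 4 comparisons it differed by −1.79 and −3.17 with low serum, in wild-type and ΔLEO1 cells, and by 4.53 and 3.15 between ΔLEO1 and wild-type cells, in 10% and 0.1% serum. The groups did not overlap in any of them. With 3 libraries against 3 the smallest p that the exact two-sided permutation test can give is 0.1, which each of them reached (0.12 after adjustment over the 12 ratios tested), so no ratio could pass the threshold.

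In the EGR family EGR1 held 99.2% ± 0.25 in WT_10 and EGR2 0.608% ± 0.231. The share of EGR2 was 11.7% ± 1.2 in WT_01, 3.17% ± 1.42 in Leo1_10 and 24.4% ± 4.82 in Leo1_01. The log2 ratio of EGR2 to EGR1 was higher in low serum by 4.52 in wild-type and 3.41 in ΔLEO1 cells, and higher in ΔLEO1 than in wild-type cells by 2.39 in 10% and 1.28 in 0.1% serum, without overlap and with an exact permutation p of 0.1 in each. EGR3 stayed under 1% of the family in every library. In the JUN family the share of JUNB was 25.6% ± 4.32 in 10% and 43.2% ± 2.42 in 0.1% serum in wild-type cells, and 22% ± 3.45 and 35.3% ± 8.13 in ΔLEO1 cells. The log2 ratio of JUNB to JUN was higher by 1.05 and 0.83 (exact permutation p = 0.1 in both) and overlapped between the genotypes in either serum (p = 0.6 and 0.5).

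**Figure D4:**
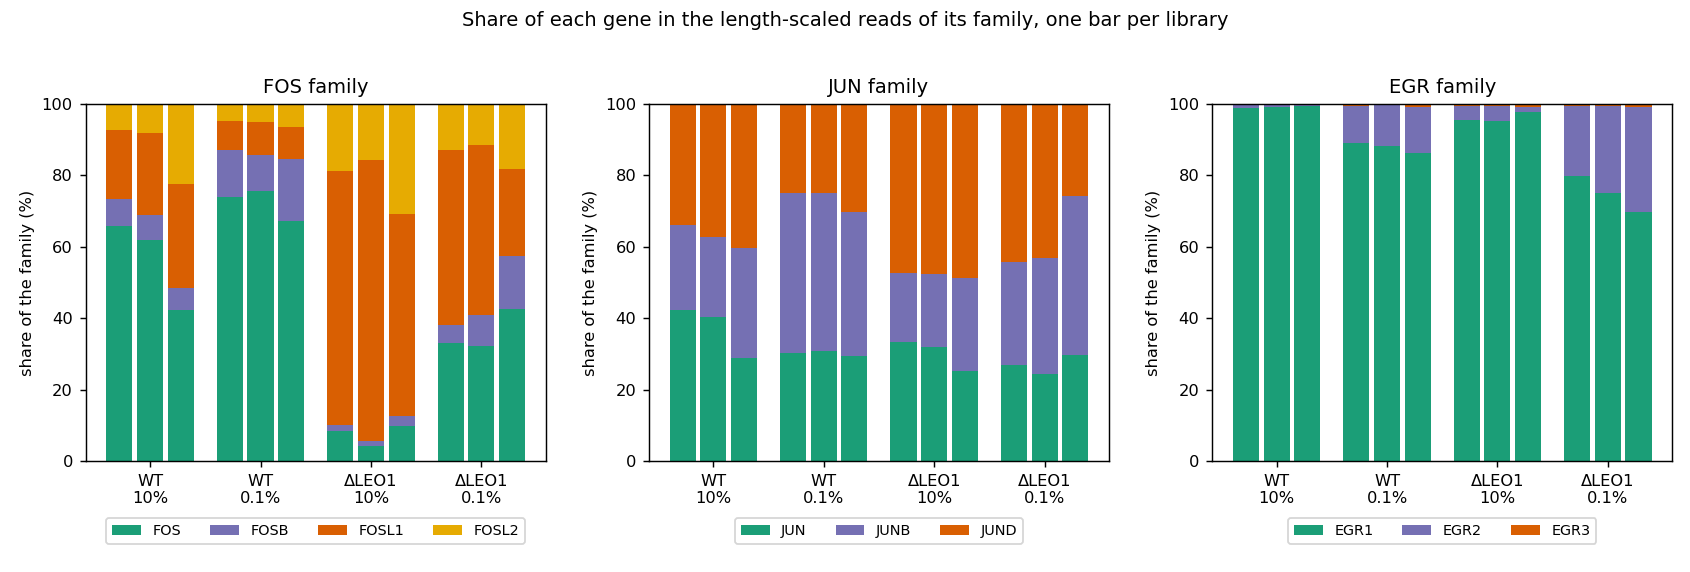
Share of each gene in the summed reads per length of its family, in percent, with 1 bar per library and the libraries of each group in the order of their numbers. FOSL1 fills 56.8% to 78.8% of the FOS family in ΔLEO1 cells in 10% serum, where FOS fills 4.3% to 9.71%, and EGR2 fills 0.346% to 0.781% of the EGR family in WT_10 and 10.6% to 12.9% in WT_01.

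The other genes of the pathway were read from 9 lists. Of 21 other immediate early genes 20 were tested. With gene scaling 7 were called higher and 2 lower in low serum in wild-type cells, where 16% and 16.6% of all genes were, and 6 and 2 in ΔLEO1 cells, where 16.5% and 12.9% were. The medians of the list were 0.35 and 0.29, against 1.28 and 1.75 for the 10 AP-1 and EGR genes. With ERCC scaling none was called higher in either genotype, and 3 were called lower in wild-type cells and 7 in ΔLEO1 cells, against 36.1% and 47.2% of all genes. NR4A3, an immediate early nuclear receptor, fell by 3.60 ± 0.50 on the log2 ERCC scale in wild-type cells (adjusted p = 4.06e-09) and by 2.47 ± 0.49 in ΔLEO1 cells (adjusted p = 8.71e-05), in the opposite direction to EGR2. MYC, a growth regulator, fell by 1.39 ± 0.45 in ΔLEO1 cells, a call lost without library 4, 10 or 11, at −1.03 to −1.34. Between the genotypes F3 and HBEGF, the clotting initiator tissue factor and a growth factor of the EGF receptor, were higher in ΔLEO1 cells in both sera, F3 by 3.68-fold and HBEGF by 5.55-fold in 10% serum, and the call of HBEGF in 0.1% serum was lost without library 9, at 1.58 (adjusted p = 0.144). BTG2, an antiproliferative gene, was 3.16-fold lower in 10% serum (adjusted p = 0.0152), a call lost without library 1, 2, 5 or 6, at −1.40 to −1.63, and with DESeq2 (adjusted p = 0.295).

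Upstream of the 10 genes, the 6 genes of serum response factor and its cofactors had 1 member called lower (ELK1) and none higher in wild-type cells in low serum on the ERCC scale, and ELK1 and ELK4 lower in ΔLEO1 cells, against 36.1% and 47.2% of all genes called lower. The calls of ELK1 were lost without library 1, 2, 7 or 9 in wild-type cells, at −1.13 to −1.28, and without library 4, 5, 10 or 11 in ΔLEO1 cells, at −0.93 to −1.33, and that of ELK4 without library 4, 5, 7, 10 or 11, at −0.85 to −1.19. None was called between the genotypes, where the medians were 0.36 and 0.38 against 0.35 and 0.27 for all genes. Of the 13 MAP kinases, 10 were called lower in wild-type and 11 in ΔLEO1 cells with low serum on the ERCC scale, where 36.1% and 47.2% of all genes were, with medians of −1.14 and −1.22 against −0.97 and −1.05 for all genes. RPS6KA1, a kinase downstream of ERK, fell by 2.08 ± 0.50 and 1.52 ± 0.50, and MAP2K1, which activates ERK, by 1.48 ± 0.45 and 1.41 ± 0.45. MAPK8 fell by 1.70 ± 0.45 in ΔLEO1 cells and was at −1.05 ± 0.45 in wild-type cells, not called. With 1 library fewer the calls of RPS6KA1 in ΔLEO1 cells (without library 4, 10 or 11, −1.18 to −1.47), MAP2K1 in wild-type cells (without 1, 7 or 9, −1.31 to −1.44) and MAPK8 (without 10, −1.59) were lost. None of the 13 was called between the genotypes on the ERCC scale, in 10% or 0.1% serum.

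The feedback inhibitors of the MAP kinases included genes that differed between the genotypes in both sera. SPRY1, which dampens receptor signalling to ERK, was at 6.66, 6.74 and 4.05 CPM in WT_10, 60.9, 61 and 35.8 in WT_01, 1.01, 0.971 and 0.765 in Leo1_10 and 9.57, 9.13 and 7.9 in Leo1_01. It rose with low serum by 4.31-fold in wild-type and 4.25-fold in ΔLEO1 cells on the ERCC scale (adjusted p = 0.000574 and 0.00136), and was 5.21-fold and 5.27-fold lower in ΔLEO1 cells in 10% and 0.1% serum (adjusted p = 0.000127 and 7.22e-05). DUSP4, a nuclear phosphatase of ERK, was at 25.1, 27.8 and 22.2 CPM in WT_10 and 1.75, 1.48 and 0.608 in Leo1_10, 15-fold lower (adjusted p = 2.6e-11), and 2.86-fold lower in 0.1% serum (adjusted p = 0.0256). The call in 0.1% serum was lost without library 7, 8, 10 or 11, at −1.19 to −1.67. It rose 4.12-fold with low serum in ΔLEO1 cells. DUSP5 went the other way, 3-fold higher in ΔLEO1 cells in 10% serum (adjusted p = 0.0114), a call lost without library 1, 2 or 4, at 1.41 to 1.52. DUSP5 fell with low serum by 1.59 ± 0.46 and 2.61 ± 0.46, and the first of these calls was lost without library 9, at −1.27. DUSP1 fell by 1.86 ± 0.45 with low serum in wild-type and 2.18 ± 0.45 in ΔLEO1 cells, and DUSP6 fell by 1.52 ± 0.45 and 2.32 ± 0.45. Over the list of 14, of which 13 were tested, 4 were lower and 1 higher on the ERCC scale in wild-type cells with low serum, where 36.1% and 0.944% of all genes were, and 5 and 2 in ΔLEO1 cells, where 47.2% and 0.975% were. Between the genotypes 2 were lower and 1 higher in 10% serum, with 4.64% and 4.2% of all genes, and 2 were lower and none higher in 0.1% serum, with 3.59% and 3.85%.

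Of 12 partners and relatives of AP-1, 10 were tested. MAF, a factor that can pair with FOS and JUN proteins, was at 2.14, 2.29 and 1.91 CPM in WT_01 and at 0.0307 CPM or less, a single read, in each of the other 9 libraries, so it was called higher with low serum in wild-type cells and lower with the knockout in 0.1% serum (adjusted p = 1.75e-10 and 7.85e-13). MAFG, a small MAF protein, fell by 1.28 ± 0.46 with low serum in wild-type cells, a call lost without library 1, 2, 7 or 9, at −1.18 to −1.28. BATF3 was 4.71-fold lower in ΔLEO1 cells in 10% serum (adjusted p = 0.00148), at 0.516, 0.596 and 0.158 CPM against 2.6, 2.17 and 3.19, and without library 6 it was at −1.76 and not called. No other gene of this list was called on the ERCC scale in a serum or genotype comparison, where the shares of all genes called lower ran from 3.59% to 47.2% and those called higher from 0.944% to 4.2%. On the gene scale 3 were called higher with low serum in each genotype, with 16% and 16.5% of all genes called higher. Between the genotypes on this scale 2 were lower in 10% serum, with 21.8% of all genes. In 0.1% serum 3 were lower and 2 higher, with 17.6% and 15.4%. Of the EGR corepressors NAB1 and NAB2, NAB1 fell with low serum, by 1.59 ± 0.45 in wild-type and 1.07 ± 0.45 in ΔLEO1 cells, and neither was called between the genotypes on the ERCC scale. The call of NAB1 in ΔLEO1 cells was lost in 7 of the 12 fits with 1 library fewer, those without library 2, 4, 5, 7, 8, 10 or 11, at −0.74 to −1.09, and that in wild-type cells without library 7 or 9, at −1.59 and −1.47.

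Genes known as AP-1 targets in other cells gave a mixed picture. Of 12 listed, 10 were tested, of which 5 were lower and 1 higher with low serum in wild-type cells and 6 lower and none higher in ΔLEO1 cells, on the ERCC scale. Of all genes 36.1% were lower and 0.944% higher in the first of these comparisons and 47.2% and 0.975% in the second. TIMP1, an inhibitor of metalloproteinases, was at 399, 393 and 388 CPM in WT_10 and 1574, 1844 and 1636 in WT_01, 2.08-fold higher on the ERCC scale (adjusted p = 0.0484), a call lost in 10 of the 12 fits with 1 library fewer, and 4.04-fold higher relative to the genes. MMP3, a matrix protease, fell by 3.43 ± 0.45 in wild-type and 3.11 ± 0.45 in ΔLEO1 cells. MMP1, the interstitial collagenase, was 4.27-fold higher in ΔLEO1 cells in 10% serum and 5.63-fold higher in 0.1% serum (adjusted p = 0.000126 and 3.52e-06), with 742, 996 and 291 CPM against 189, 222 and 212 in 10% serum, whereas FOS was lower in the same libraries. IL6 and CXCL8, inflammatory signals, depended on library 3, in which they stood at 115 and 236 CPM. In the other WT_10 libraries IL6 was at 2.66 and 3.8 CPM and CXCL8 at 4.85 and 4.95 CPM. Without library 3 the genotype difference in 10% serum was −0.94 for IL6 and −0.52 for CXCL8, not called, where it was −3.93 and −3.89 with it. Their interactions, 3.38 and 4.02 on the ERCC scale (adjusted p = 0.00453 and 3.47e-05), were 0.40 and 0.65 without it and not called, and that of IL6 was also lost without library 6, 7 or 9, at 2.89 to 3.36, and with a term for the highest-numbered library, at 2.73 (adjusted p = 0.498). Their fall with low serum in wild-type cells was still called without it, at −2.76 and −2.63.

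The AU-rich element binding proteins, which speed or slow the decay of early response mRNAs, had no member called in wild-type cells with low serum on the ERCC scale and 3 of 6 called lower in ΔLEO1 cells (HNRNPD, ZFP36 and ELAVL1), against 36.1% and 47.2% of all genes called lower. Without library 4, 10 or 11 HNRNPD and ZFP36 were not called, at −1.08 to −1.33 and −0.84 to −1.07, and without library 5 ZFP36 was not, at −1.29. Relative to the genes, the 3 ZFP36 genes were called higher in wild-type cells with low serum, as were 16% of all genes. None was called between the genotypes on the ERCC scale. The 8 heat shock genes, read as a sign of stress, had 2 called lower with low serum in wild-type cells and 6 in ΔLEO1 cells on the ERCC scale, against 36.1% and 47.2% of all genes, and none was called between the genotypes. On the gene scale 6 were called higher in ΔLEO1 cells in 10% serum and 5 in 0.1% serum, with 17.7% and 15.4% of all genes called higher. Whether this has a part in the differences of FOS, FOSB and EGR1 was not tested.

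**Figure D5:**
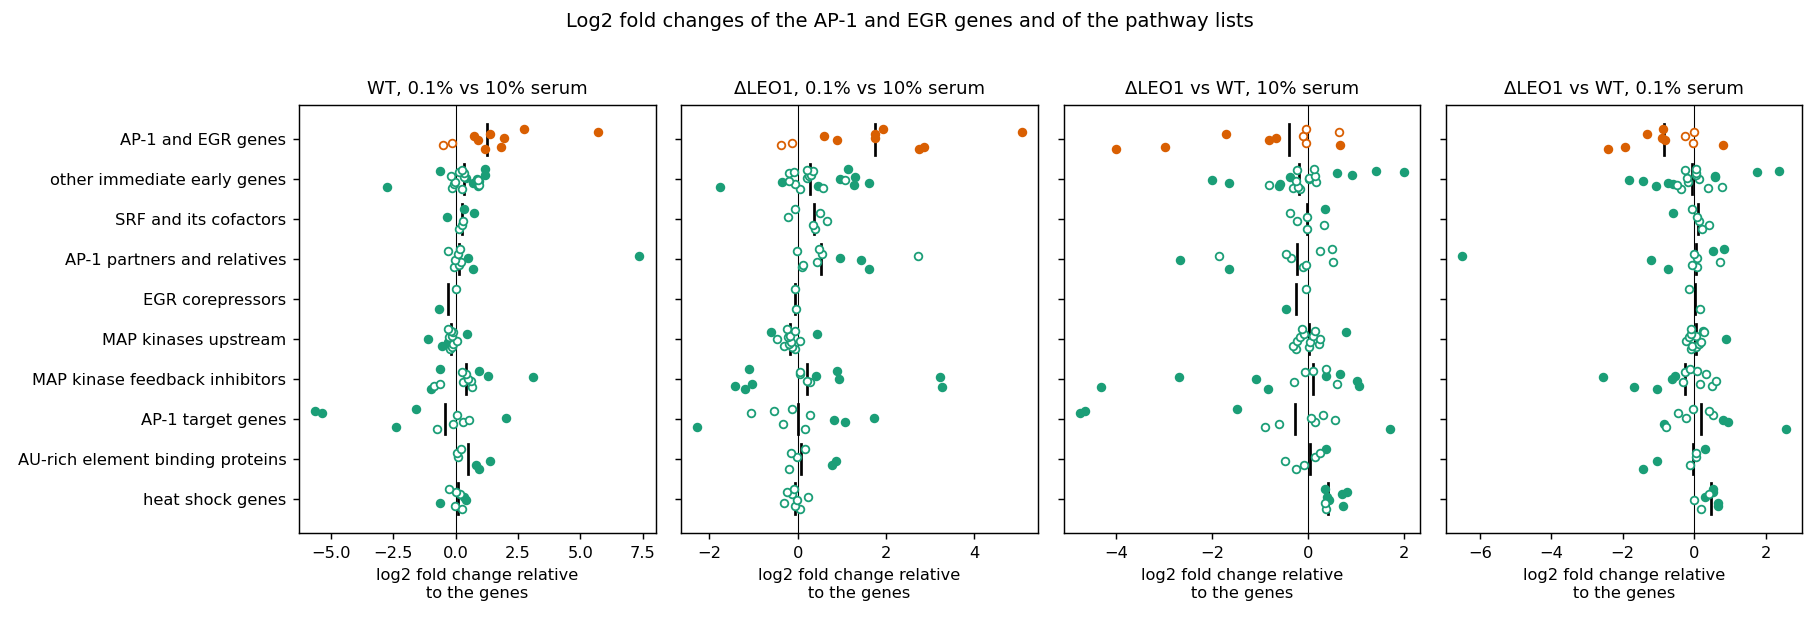
Log2 fold changes relative to the genes for the 10 AP-1 and EGR genes and for 9 lists of pathway genes in 4 comparisons. Filled points were called, open points were not, and black bars are medians. The median of the 10 genes is 1.28 and 1.75 in the serum comparisons, above the median of each list, and −0.40 and −0.83 in the genotype comparisons.

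Across the 12 libraries the genes fell into groups that varied together in log2 CPM, which mostly follow the 4 groups of samples and share library effects, so the values are descriptions. FOS correlated with FOSB at Pearson r = 0.965 and with EGR1 at 0.956, JUN with FOSB at 0.941 and EGR2 with EGR3 at 0.928, and JUNB with EGR3 at 0.946. FOSL1 correlated negatively with FOS, at −0.749, and with FOSB, at −0.779. FOSL2 showed little relation to FOS, at −0.0959. Among all other tested genes, the 3 whose values were most like those of FOS were KIAA1143 (0.988), SMO (0.985) and SLC9A9 (0.983). For EGR1 they were SAP30L (0.995), ROR1 (0.991) and ARAP1 (0.991), for JUN SMARCA2 (0.976), SEMA5A (0.976) and TFDP2 (0.974), and for FOSL1 TXNDC17 (0.945), ARPC5L (0.94) and PSMB2 (0.936).

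In the annotation of GRCh38 FOS lies on chromosome 14 at 75278774 to 75282230 on the plus strand, FOSB on chromosome 19 at 45467995 to 45475179 (plus), FOSL1 on chromosome 11 at 65892049 to 65900573 (minus) and FOSL2 on chromosome 2 at 28392448 to 28417312 (plus). JUN lies on chromosome 1 at 58780788 to 58784327 (minus), JUNB on chromosome 19 at 12791496 to 12793315 (plus) and JUND on chromosome 19 at 18279760 to 18281622 (minus). EGR1 lies on chromosome 5 at 138465490 to 138469315 (plus), EGR2 on chromosome 10 at 62811996 to 62919900 (minus) and EGR3 on chromosome 8. The 10 genes thus lie on 8 chromosomes, with FOSB, JUNB and JUND on chromosome 19.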

How the data were processed

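Poly(A) RNA of 12 libraries was measured. The authors sequenced stranded libraries, aligned the reads to GRCh38 with the ERCC sequences and deposited raw counts per gene and per ERCC transcript. The submitters' processing notes name bcl2fastq 2.20.0.422, STAR 2.7.10a and featureCounts 1.5.1. The annotation release and the strand setting are not given in the sources used here.

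The deposited counts were analysed in R 4.3.3 with edgeR 4.0.16 (limma 3.58.1). Genes over 1 CPM in 3 or more libraries (13236) entered 1 negative binomial fit of the 4 groups, with the ERCC total times its TMM factor as library size, and two-sided likelihood ratio tests were adjusted over all tested genes (Benjamini-Hochberg, 0.05). The study used edgeR with this scaling and filter and does not name the test. The scale relative to the genes used gene totals with TMM factors. ERCC-scaled counts are counts divided by that library size. RPKM used the exon union of GENCODE on GRCh38. Log2 CPM for correlations had a prior count of 2. Groups and serum came from the titles. The members and the gene lists were chosen with earlier results of these data known. Named beyond the 10 genes were LEO1, up to 2 called genes with the largest change per list, direction and ERCC comparison, and the 3 genes most like FOS, FOSL1, JUN and EGR1. ELAVL1 and the ZFP36 genes were named after their values were seen. Alternatives were DESeq2 1.42.0, the quasi-likelihood test, other scalings, filters and library sets. Python 3.11.15 drew the figures. The scripts were tested on simulated data. Gene counts of 26240632 to 45315560 per library and the ERCC total set the precision.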

Additional observations from a re-analysis of the deposited data

Results flagged for a closer look

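The serum response of FOS differed between the genotypes when scaled relative to the genes, by 1.59 ± 0.44 (log2, SE) in the test of the interaction in edgeR (adjusted p = 0.0126), with a rise of 2.75 in ΔLEO1 and 1.17 in wild-type cells. It was higher by 1.67 on the ERCC scale, which was not called (adjusted p = 0.867). Without library 12 it was 1.47 relative to the genes and still called (adjusted p = 0.0375), and after summing the pair of lowest-numbered libraries per group it was 1.39 and not called (adjusted p = 0.439). EGR3 was called in the opposite direction relative to the genes without library 12, at −1.28 (adjusted p = 0.00976), and was not called with it, at −0.82 (adjusted p = 0.447). Groups of 3 libraries are too small for a search for single outlying values.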

How the results depend on the processing

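No paired analysis was possible because the libraries carry running numbers that no 2 groups share. A term for the highest-numbered library of each group, which the labels do not pair, left 94 of 101 single-gene results on the same side and lost 6 calls, FOSL2 and TIMP1 with low serum in wild-type cells (adjusted p = 0.0585 and 0.0594), ELK4 and NAB1 with low serum in ΔLEO1 cells (0.0549 and 0.0586), DUSP4 between the genotypes in 0.1% serum (0.0691) and the interaction of IL6 (0.498). The ERCC counts of called members were 4, 5, 3 and 2 in the serum comparisons of wild-type and ΔLEO1 cells and the genotype comparisons in 10% and 0.1% serum, and 0 for the interaction. Relative to the genes they were 8, 8, 6, 7 and 1. With the 2 lowest-numbered libraries summed they were 1, 3, 2, 0 and 0 on the ERCC scale. In the genotype comparison in 0.1% serum DESeq2 called 1 and a fit of only the 6 libraries compared called 1. That fit gives no interaction. DESeq2 gave no adjusted p for IL6 and CXCL8, which were left out of that comparison. With 1 library left out the counts ran from 2 to 5, 3 to 6, 2 to 4, 1 to 6 and 0 to 1. Fewer libraries leave less power, and beyond that the causes were not tested. In 2 sets of fits chosen after the values were seen, scaling relative to the genes without library 12 gave 8, 8, 6, 7 and 2, and with the 2 lowest-numbered libraries summed it gave 8, 7, 3, 3 and 0. The shares of all genes called in these alternative fits are not given here. Whether the counts changed more for the 10 genes than for other genes was not tested.

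Reversals were of values that were not called on the ERCC scale. Relative to the genes they were JUN 0.88 and JUND 0.74 (serum, wild-type), JUN 0.88 and JUND 0.60 (serum, ΔLEO1), FOSL2 −0.054, JUND −0.11 and EGR3 −0.043 (genotype, 10%), FOSL2 −0.02, JUND −0.26 and EGR2 −0.0064 (genotype, 0.1%) and FOSL1 0.14 (interaction). With summed libraries they were JUN 0.43 (serum, ΔLEO1), JUN 0.049, JUNB 0.069 and EGR3 0.037 (genotype, 0.1%) and JUNB 0.29 (interaction), and with a term for the highest-numbered library FOSL2 −0.093 (interaction). With 1 library left out, the ranges that crossed 0 were FOS −0.36 to 0.51 and JUN −0.53 to 0.16 (serum, wild-type), JUN −1.05 to 0.41, JUNB −0.34 to 1.37 and EGR3 −0.11 to 1.54 (serum, ΔLEO1), EGR3 −0.13 to 0.63 (genotype, 10%), FOSL2 −0.42 to 0.79, JUN −1.39 to 0.069, JUNB −1.69 to 0.029, JUND −0.44 to 0.34, EGR2 −0.57 to 0.71 and EGR3 −1.55 to 0.10 (genotype, 0.1%), and FOSL1 −0.43 to 0.14, FOSL2 −0.78 to 0.43, JUN −0.87 to 0.59, JUNB −1.34 to 0.38, JUND −0.67 to 0.12 and EGR1 −0.24 to 0.65 (interaction).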
